A study of Mus musculus with 23 samples.

Results

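Foxp3 regulatory T cells of the mouse lymph node (LN) were examined in 7 single-cell RNA-seq libraries from mice with a changed STAT5B, the transcription factor that carries interleukin-2 (IL-2) signals to the nucleus. All mice were C57BL/6 at 2 months of age, and the edited lines were made in C57BL/6N. WT mice (2 libraries) had the unedited Stat5b gene, Y665F het mice (3 libraries) carried the Y665F codon on one copy of Stat5b, and Y665F homo mice (2 libraries) on both. The zygosity stands only in the sample titles. The libraries are called WT 1 and 2, het 1 to 3 and homo 1 and 2. The change is germline, so every cell of an edited mouse carries it and not the T cells alone. The study describes a progressive ulcerative dermatitis in Y665F mice, earlier in homozygotes, and gives the sampled age as the latest at which homozygous cohorts could be kept before it set in. It does not state the skin condition of the mice sequenced here. The study describes a combined sample of several mice per genotype under a heading on spleen and a legend on lymph nodes, so it is uncertain which tissue was pooled. The labels do not say that the libraries of a group came from separate animals, so p-values measure the spread between these samples, which may be technical.

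A barcode, the tag of one droplet, was taken as a Foxp3 cell when it had at least 200 detected genes, at most 10% of its unique molecular identifiers (UMIs) in mitochondrial genes, at least 1 UMI of Foxp3 and none of Cd8a, Cd8b1 or Cd79a. Of 41204 LN barcodes that passed the first 2 filters, 986 (2.39%) were Foxp3 cells. WT 1 and 2 held 124 and 238 of them, het 1, 2 and 3 held 193, 146 and 54, and homo 1 and 2 held 83 and 148. The cells were thus chosen by the measured UMIs of Foxp3 itself, so its level is no result.

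Regulatory T cells hold back other lymphocytes. Foxp3, an X-linked transcription factor, maintains their program, and most of them carry the high-affinity IL-2 receptor, whose alpha chain is CD25 (Il2ra). IL-2 binding activates JAK1 and JAK3, which phosphorylate STAT5A and STAT5B. STAT5 dimers then bind DNA at sites of the form TTCNNNGAA and raise both Foxp3 and feedback inhibitors such as Cish and the Socs genes. In the lymph node, resting regulatory T cells keep the homing receptors of naive cells, and activated ones gain costimulatory receptors such as ICOS, OX40 and 4-1BB.

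The edit lies in Stat5b (ENSMUSG00000020919), which spans chr11:100780731-100850724 on the minus strand of GRCm38. The 2 lines below show 33 bases of the coding strand around the edited codon, which is in capitals, first as in the reference transcript and then as in the donor oligonucleotide that the study used to make the Y665F mice. They are shown because this codon is the only designed difference in protein sequence between the groups. The changes in this window are A17T and C18T, with positions counted from 1 at its 5′ end, which turn tyrosine into phenylalanine (Y665F).
Stat5b reference: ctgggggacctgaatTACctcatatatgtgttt
Stat5b donor: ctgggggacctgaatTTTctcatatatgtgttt

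Depth differed widely within the genotypes. The median Foxp3 cell held 998 and 1144 UMIs in the WT libraries, 3121, 1754 and 386 in the het and 414 and 940.5 in the homo libraries. Het 3 and homo 1 were thus the shallowest, and their Foxp3 cells held so few UMIs in all that 1 UMI stood for 41.1 UMIs per 1000000 summed UMIs (CPM) in het 3 and 24.9 in homo 1. Summed over its Foxp3 cells, a library gave between 24343 and 672655 UMIs. Any 2 LN libraries shared between 26 and 91 barcodes, and no Foxp3 cell had its barcode in another library as a Foxp3 cell. Doublet scoring marked between 0 and 5 Foxp3 cells a library.

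The gate was checked against cells that should lack Foxp3. Among 8496 barcodes with at least 2 UMIs of Cd8a or Cd8b1 and none of Cd4 or Cd79a, 47 had a Foxp3 UMI. This was between 0.147% and 0.807% per library. Among 8361 barcodes with at least 2 UMIs of Cd79a, a B-cell receptor chain, and none of Cd3, 15 did, between 0% and 0.493%. Among barcodes with a Cd3 UMI and none of Cd8a, Cd8b1 or Cd79a, the share with a Foxp3 UMI was between 1.90% and 11.6%, at median depths from 423 to 3052 UMIs. In each library it was above both other shares. The median depth of the barcodes with Cd8 UMIs was higher, from 513 to 3961 UMIs. Leaving out barcodes with Cd4 or Cd3 UMIs may have lowered the Foxp3 shares of the Cd8 and Cd79a barcodes, which was not tested. A further 95 barcodes with Foxp3 had a Cd8 UMI and 40 a Cd79a UMI, and the rule left these out. Between 55.4% and 99.0% of the Foxp3 cells had a Cd3 UMI and between 6.02% and 43.5% a Cd4 UMI, with the lowest values in homo 1.

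The label of regulatory T cells held against genes other than Foxp3. Conventional CD4 cells served as the reference: 3066 barcodes of the same libraries with a Cd4 and a Cd3 UMI and none of Foxp3, Cd8a, Cd8b1 or Cd79a. The median depth of this gate ran from 436 UMIs in homo 1 to 3191 in het 1. A shallow barcode without a Foxp3 UMI can still be a regulatory T cell. With each barcode cut down to 300 UMIs, the Foxp3 share of het 1 fell from 3.95% to 1.03%. Such cells may be in the reference to an extent that differs by library, which was not tested. Of 24 regulatory T cell genes, 16 had a higher level in the Foxp3 cells in 7 of 7 libraries, and 18 in at least 6. Il2ra, the alpha chain of the IL-2 receptor, stood at 536 and 484 CPM in the WT libraries, 447, 384 and 411 in the het and 497 and 486 in the homo libraries. In conventional CD4 cells it lay between 21.4 and 56.9 CPM, so the gates did not overlap. Summed over all libraries, the CPM ratio of Foxp3 to conventional cells was 13.6 for Il2ra, 11.6 for the inhibitory receptor Ctla4, 9.65 for the transcription factor Ikzf2 and 22.9 for the integrin chain Itgae. For Tgfb1, a cytokine gene that many lymphocytes use, it was 1.43. Penk, Il10, Entpd1, Il1rl1, Nt5e and Ebi3 were higher in 3 to 5 of the 7 libraries, with between 8 UMIs (Il10) and 142 UMIs (Nt5e) in all Foxp3 cells. The same split chose the cells, so these values are a description.

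**Figure D1:**
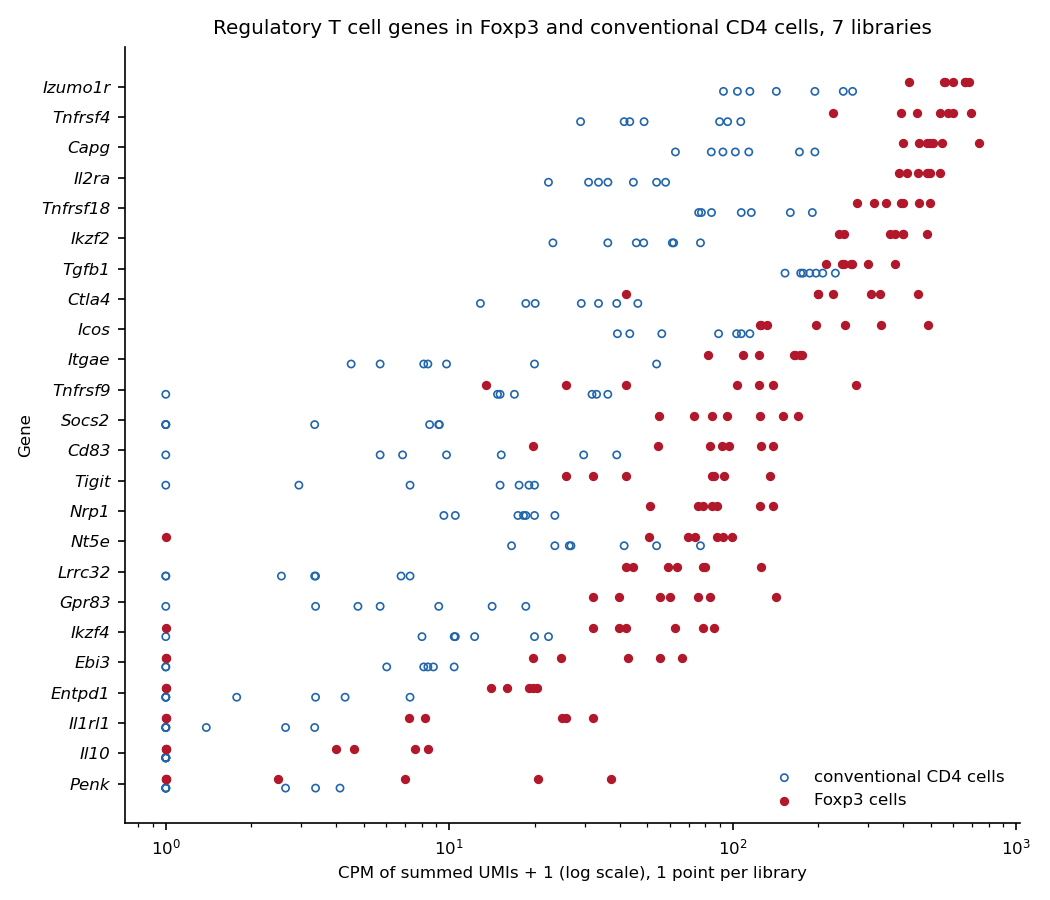
CPM of summed UMIs plus 1 (horizontal log axis) of 24 regulatory T cell genes, with 1 point per library for Foxp3 cells (filled) and conventional CD4 cells (open). Il2ra, Ikzf2 and Capg lie to the right in the Foxp3 cells of all 7 libraries, while Tgfb1 lies close to the conventional cells and genes at 1 on the axis had no UMI in that library.

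At the edge of the rule stood the 579 Foxp3 cells with exactly 1 Foxp3 UMI. These were 79 of 124 and 139 of 238 Foxp3 cells in the WT libraries. They were 67 of 193, 74 of 146 and 44 of 54 in the het and 66 of 83 and 110 of 148 in the homo libraries. Their summed level of the other 24 regulatory T cell genes was 4744 and 4762 CPM in the WT libraries, 3457, 3255 and 3698 in the het and 4656 and 2919 in the homo libraries. Conventional CD4 cells, just outside with no Foxp3 UMI, gave 983 and 1154 in the WT libraries, 698, 839 and 1251 in the het and 1196 and 797 in the homo libraries. The 407 Foxp3 cells with 2 or more UMIs ranged from 3778 CPM in homo 2 to 7039 in WT 2.

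Whether the edit moved the abundance of Foxp3 cells was asked first. Since a gate on 1 UMI follows depth, each barcode was thinned to 300 UMIs. The share of Foxp3 cells was then 0.767% and 0.995% in the WT libraries, 1.03%, 1.0% and 0.765% in the het and 1.13% and 1.18% in the homo libraries. Both homo libraries lay above the others, and the WT and het libraries overlapped. The means were 0.881% ± 0.161 (SD, n = 2) in WT, 0.933% ± 0.147 (SD, n = 3) in het and 1.16% ± 0.033 (SD, n = 2) in homo. The Jonckheere-Terpstra statistic for the order WT, het, homo, permuted over all 210 arrangements of the libraries, gave an exact two-sided p of 0.0762, and 0.229 after Benjamini-Hochberg adjustment over 3 share tests. The smallest p the design allows is 0.00952. The order was not called. At 500 UMIs a barcode the shares were 1.19% and 1.5% in the WT libraries, 1.55%, 1.52% and 0.702% in the het and 1.24% and 1.81% in the homo libraries, so homo 1 lay below WT 2, the difference of homo minus WT was 0.178 points in place of 0.277, and the exact permutation p was 0.438. Thinning to 300 left out 973 barcodes of het 3 and 844 of homo 1, each under 300 UMIs. Before thinning, 2503 of 6703 and 2228 of 9216 barcodes in the WT libraries had at least 2 UMIs of Cd79a and none of Cd3. The counts were 1015 of 4885, 1047 of 4604 and 434 of 5253 in the het and 382 of 5468 and 752 of 5075 in the homo libraries. These barcodes are among those that the shares were counted on, and their part in the shares was not tested.

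Without thinning the shares were 1.85% and 2.58% in the WT libraries, 3.95%, 3.17% and 1.03% in the het and 1.52% and 2.92% in the homo libraries, and the exact permutation test gave p = 1.0. The unthinned share was highest in het 1, the deepest library, and lowest in het 3, the shallowest. The direction turned when Foxp3 cells and the barcodes they were counted among were both required to hold, before thinning, a Cd3 UMI and none of Cd8a, Cd8b1 or Cd79a: at 300 UMIs the homo mean then lay 0.250 percentage points below the WT mean. That rule kept 46 of 83 Foxp3 cells in homo 1 and 112 of 124 in WT 1. With 2 or more Foxp3 UMIs asked for and no thinning, which changes both gate and depth, it lay 0.343 points below. The exact permutation test of the order of the 3 genotypes gave p = 0.876 in both cases.

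**Figure D2:**
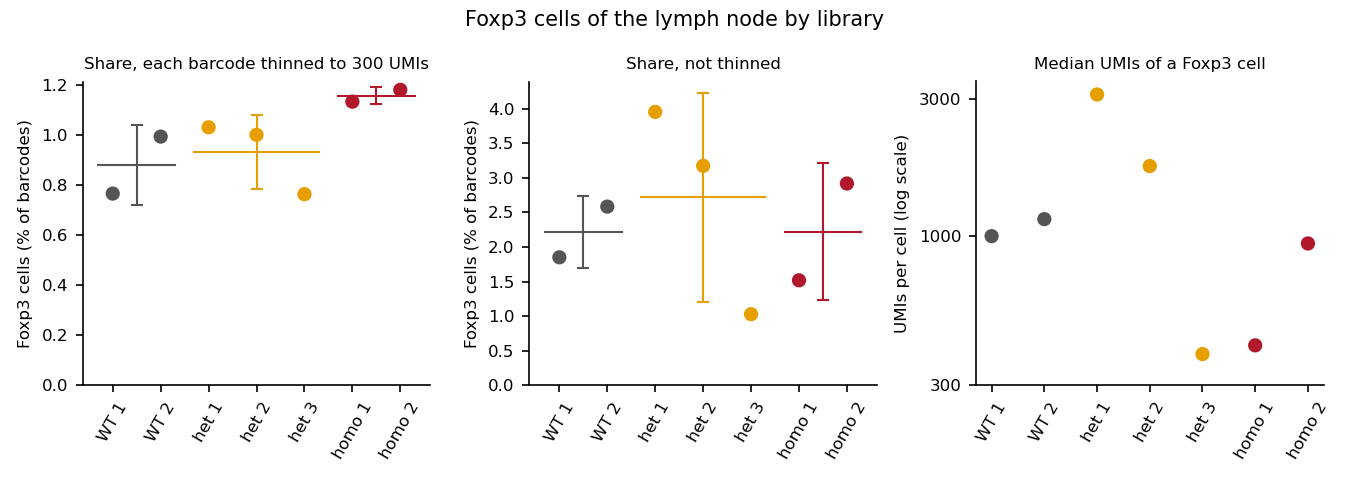
Percent of LN barcodes that were Foxp3 cells after thinning to 300 UMIs (left) and without thinning (middle), and the median UMIs of a Foxp3 cell on a log axis (right), with 1 point per library and lines and bars for the mean and SD of each genotype. After thinning the homo libraries stand at 1.13% and 1.18% and het 3 and WT 1 lowest, while the unthinned shares run in the order of depth within het and within homo.

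The homo and WT libraries were then compared gene by gene on UMI counts summed over the Foxp3 cells of a library. Of 3449 genes tested, 2 (0.058%) passed an adjusted p under 0.05 and a fold change over 2: Tnfrsf9, a costimulatory receptor (4-1BB) of activated T cells, fell, and Dapl1, a member of the death-associated protein family, rose. At an unadjusted p under 0.05, 108 genes (3.13%) were higher and 151 (4.38%) lower. DESeq2 called 0 genes, with 43 at an unadjusted p under 0.05.

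Tnfrsf9 (ENSMUSG00000028965, chr4:150914562-150946102) had 137 and 272 CPM in the Foxp3 cells of the WT libraries, 103, 123 and 41.1 in the het and 24.9 and 12.5 in the homo libraries. Both homo libraries lay below every other library, though het 3 and homo 1 held 1 UMI each, so depth alone set their order. With only 2 libraries on each side such order is common: both homo libraries lay below both WT libraries for 21.3% of the genes tested and above both for 16.2%. The log2 fold change of homo against WT was -3.80 (SE 0.592, adjusted p = 0.000961). It rested on 3 UMIs in homo, in 1 cell of each library, against 112 in WT, a CPM ratio of 0.0651 with a counting interval (95%, exact) from 0.0132 to 0.195. In WT, 12 of 124 and 40 of 238 cells held a UMI. Without homo 2 the change was -3.34 with an adjusted p of 0.215, and DESeq2 gave -3.70 with an adjusted p of 0.890. In conventional CD4 cells Tnfrsf9 stood between 0 and 35.2 CPM, and its change there did not pass (-1.28, adjusted p = 0.597). The difference between the 2 changes was -2.55 (SE 1.09, adjusted p = 0.951) and did not pass.

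Dapl1 (ENSMUSG00000026989, chr2:59484653-59505020) had 26.2 and 50.8 CPM in the WT libraries, 149, 134 and 123 in the het and 124 and 212 in the homo libraries. All edited libraries lay above both WT libraries, as they did for 3.86% of the genes tested. The log2 fold change was 2.21 (SE 0.394, adjusted p = 0.00524) in homo and 1.77 (SE 0.318, adjusted p = 0.00607) in het. Conventional CD4 cells held more of it, 226 and 239 CPM in WT against 475 and 839 in homo, and there it rose by 1.71 (SE 0.187, adjusted p = 2.43e-08). The difference between the changes in Foxp3 and conventional cells was 0.479 (SE 0.408, adjusted p = 1.0). Without homo 2 the change in Foxp3 cells was 1.33 with an adjusted p of 0.756, and DESeq2 gave 2.19 with an adjusted p of 1.0. In homo 1, 5 of 83 Foxp3 cells held a Dapl1 UMI.

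Heterozygous mice showed 3 calls against WT, 0.087% of the genes tested, with 64 genes (1.86%) higher and 89 (2.58%) lower at an unadjusted p under 0.05. DESeq2 called 0 genes here, with 12 at an unadjusted p under 0.05. These values share the WT libraries with those of homo. All 3 calls were lost without het 1 (adjusted p = 0.543 for Dapl1, 0.0748 for Igfbp4 and 0.658 for Hist1h2ae) and without het 2 (0.0547, 0.0547 and 0.275). Their log2 fold changes were 1.66, 1.39 and -1.41 without het 1 and 1.81, 1.29 and -1.34 without het 2. Hist1h2ae was also lost without WT 1 (0.0704) or WT 2 (0.150), and Dapl1 without WT 2 (0.0597). Besides Dapl1, Igfbp4 rose and the histone gene Hist1h2ae fell. Igfbp4 (ENSMUSG00000017493, chr11:99041244-99054392), which encodes a secreted protein that binds insulin-like growth factors, had 164 and 206 CPM in the WT libraries, 436, 467 and 616 in the het and 646 and 293 in the homo libraries. All edited libraries lay above both WT libraries, again as for 3.86% of the genes tested. The log2 fold change was 1.30 (SE 0.213, adjusted p = 0.00246) in het and 1.04 (SE 0.280, adjusted p = 0.194) in homo. In conventional cells Igfbp4 was higher by 0.955 in het (adjusted p = 0.000307) and by 0.886 in homo (adjusted p = 0.00885), both under the fold threshold.

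Hist1h2ae (ENSMUSG00000069272, chr13:23570517-23571220), a histone H2A gene of dividing cells, had 183 and 155 CPM in the WT libraries, 62.4, 57.9 and 82.2 in the het and 99.4 and 12.5 in the homo libraries. The WT libraries lay highest, as for 5.62% of the genes tested. The change in het was -1.38 (SE 0.293, adjusted p = 0.0494). Few cells carried it: between 1 and 10 Foxp3 cells a library had a UMI, and 40 of the 42 UMIs of het 1 were in 1 cell. Between homo and het, 0 of 3449 genes (0%) were called by edgeR, with 179 at an unadjusted p under 0.05, and DESeq2 called 0, with 18.

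**Figure D3:**
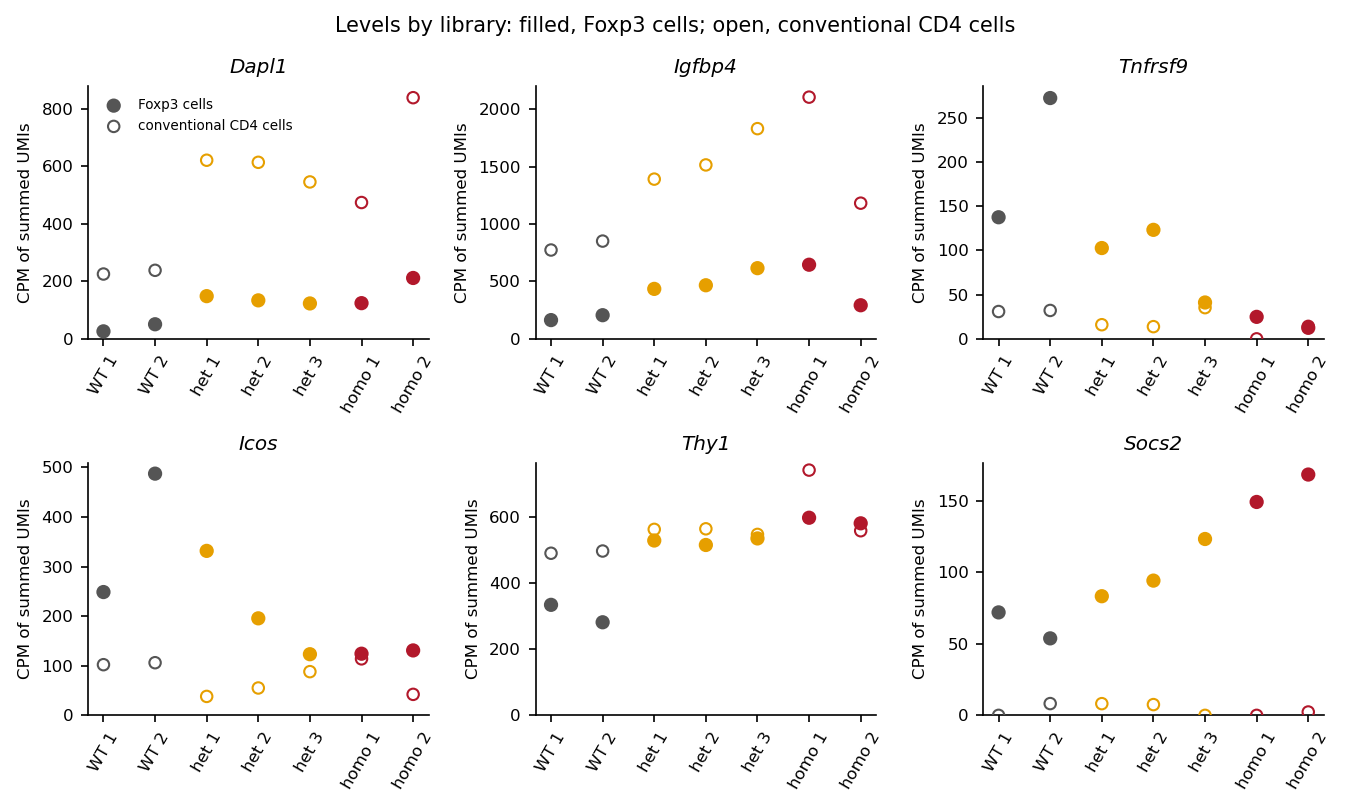
CPM of summed UMIs per library for 6 genes in Foxp3 cells (filled) and conventional CD4 cells (open), colored by genotype. Dapl1 lies above both WT libraries in all edited libraries of both cell gates, Tnfrsf9 in Foxp3 cells is lowest in homo at 24.9 and 12.5 CPM, and Socs2 is near 0 in conventional cells of every library.

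Genes of the regulatory T cell program were mostly lower in homo Foxp3 cells. Of the 24 such genes other than Foxp3, 19 were tested: 17 had a lower and 2 a higher fitted level, with 11 lower and 1 higher at an unadjusted p under 0.05, and Tnfrsf9 alone was called. Over all genes tested 4.38% were lower and 3.13% higher at that p. The 11 became 3 by DESeq2 and 4, of 18 tested, without cells holding a B-cell or myeloid UMI. The median log2 fold change was -0.695, beside -0.0215 over all genes tested, of which 48.0% were higher. With every gene that had a UMI tested, 22 of 24 were lower and the median was -0.814. With 2 or more Foxp3 UMIs, 10 of 13 were lower, 4 of them at an unadjusted p under 0.05, and the median was -0.723. Cells with exactly 1 Foxp3 UMI made up more of the homo than of the WT Foxp3 cells, as given above. Their part in these values was not tested. Without homo 2 the median was -0.436, with 16 of 20 lower and 5 lower at an unadjusted p under 0.05, beside -0.163 over all genes. The summed level of the list was 4853 and 5799 CPM in the WT libraries, 4433, 4259 and 4231 in the het and 4548 and 3179 in the homo libraries. Homo 1 thus lay above all het libraries, and homo 2 below all others.

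Icos, a costimulatory receptor of activated T cells, had 249 and 487 CPM in the WT libraries, 332, 196 and 123 in the het and 124 and 131 in the homo libraries. The homo libraries lay below both WT libraries, yet the change of -1.55 (SE 0.366, adjusted p = 0.0840) did not pass. Ctla4, an inhibitory receptor that takes up CD80 and CD86, had 307 and 448 CPM in the WT libraries, 329, 225 and 41.1 in the het and 199 and 199 in the homo libraries. Its change of -0.929 (SE 0.319, adjusted p = 0.405) did not pass either, and the value of het 3 was 1 UMI. Ikzf2, which encodes Helios, gave -0.695 (adjusted p = 0.438), with 399 and 484 CPM in WT and 373 and 237 in homo. Tnfrsf18, which encodes the costimulatory receptor GITR, gave -0.528 (adjusted p = 0.619), with 392 and 493 CPM in WT and 398 and 274 in homo. Of these, Tnfrsf18 overlapped between WT and homo, and Icos, Ctla4 and Ikzf2 did not, beside the 21.3% of all genes whose homo libraries both lay lower.

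The genes of activated and effector cells share Tnfrsf9, Icos, Tnfrsf4, Tnfrsf18, Tigit, Itgae, Ebi3 and Il10 with that program. Of 29 such genes, 19 were tested, with 15 lower, 4 higher and a median of -0.528 in homo against WT, and 8 lower and none higher at an unadjusted p under 0.05, beside 4.38% lower over all genes. The 8 became 4 by DESeq2, 3 without cells holding a B-cell or myeloid UMI and 4, of 14 tested, with 2 or more Foxp3 UMIs. The median was -1.14 without homo 1, -0.843 without het 3 and -0.402 without homo 2. In het against WT the regulatory T cell genes had 15 lower and 4 higher (median -0.328), and the effector genes 10 lower and 9 higher (median -0.323), with no call in either. The median over all genes was -0.0094 there. Tigit, an inhibitory receptor, had 85.0 and 135 CPM in WT and 24.9 and 31.2 in homo (-1.90, adjusted p = 0.228). Ccr8, a chemokine receptor of tissue regulatory T cells, had 45.8 and 132 CPM in WT and 49.7 and 0 in homo (-3.21, adjusted p = 0.194), with 2 UMIs in homo against 51 in WT, a ratio of 0.0953 (counting interval 0.0112 to 0.362).

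Receptor chains and kinases of the IL-2 pathway showed no call. Of 11 such genes 9 were tested, 4 higher and 5 lower, with a median of -0.0044. Without homo 2 it was -0.418, with 9 of 10 lower, beside the -0.163 of all genes, without WT 1 it was -0.188 and without WT 2 0.0545. Il2ra, whose libraries are given above, gave -0.0044 (SE 0.216, adjusted p = 0.999), and its WT and homo libraries overlapped. Il2rb, the beta chain, had 307 and 478 CPM in the WT libraries, 391, 297 and 616 in the het and 398 and 293 in the homo libraries (-0.321, adjusted p = 0.811). Stat5b itself had 177 and 206 CPM in the WT libraries, 107, 130 and 123 in the het and 149 and 68.6 in the homo libraries. All edited libraries lay below both WT libraries, as for 5.62% of the genes tested, and the changes of -1.14 in homo (SE 0.364, adjusted p = 0.360) and -0.723 in het (SE 0.230, adjusted p = 0.774) did not pass. In conventional CD4 cells Stat5b had 140 and 128 CPM in the WT libraries, 98.9, 95.3 and 70.5 in the het and 56.9 and 103 in the homo libraries. All edited libraries thus lay below both WT libraries there too. Stat5a was too low to be tested in Foxp3 cells, with 58.9 and 71.7 CPM in WT and 49.7 and 31.2 in homo. Il21r, the IL-21 receptor, gave 0.717 (adjusted p = 0.534). Cd4 had 170 and 218 CPM in WT and 124 and 150 in homo (-0.425, adjusted p = 0.796).

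STAT5 feedback inhibitors and targets also held no call. Of 19 genes 12 were tested, 7 higher and 5 lower, with a median of 0.0702. At an unadjusted p under 0.05, 3 were higher and none lower, beside 3.13% and 4.38% over all genes. Leaving out one library, the median ran from -0.141 without WT 1 (9 of 15 lower) to 0.512 without WT 2 (11 of 13 higher), and it was -0.0191 without homo 2, where none of the genes was at that p. Socs2, a cytokine-induced inhibitor of receptor signaling, had 71.9 and 53.8 CPM in the WT libraries, 83.3, 94.2 and 123 in the het and 149 and 168 in the homo libraries. The 3 genotypes did not overlap, in an order that 0.58% of the genes tested shared, and the change of 1.5 in homo (SE 0.381, adjusted p = 0.128) did not pass. Pim1, a kinase that favors survival, had 334 and 436 CPM in the WT libraries, 400, 380 and 616 in the het and 696 and 592 in the homo libraries (0.691, adjusted p = 0.316). In conventional cells Pim1 rose by 1.42 (adjusted p = 1.77e-05). Cish, the IL-2 receptor inhibitor, had 150 and 224 CPM in WT and 174 and 224 in homo (0.159, adjusted p = 0.939). Socs1 gave 0.02 (adjusted p = 0.996) and the survival gene Bcl2 0.291 (adjusted p = 0.825).

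**Figure D4:**
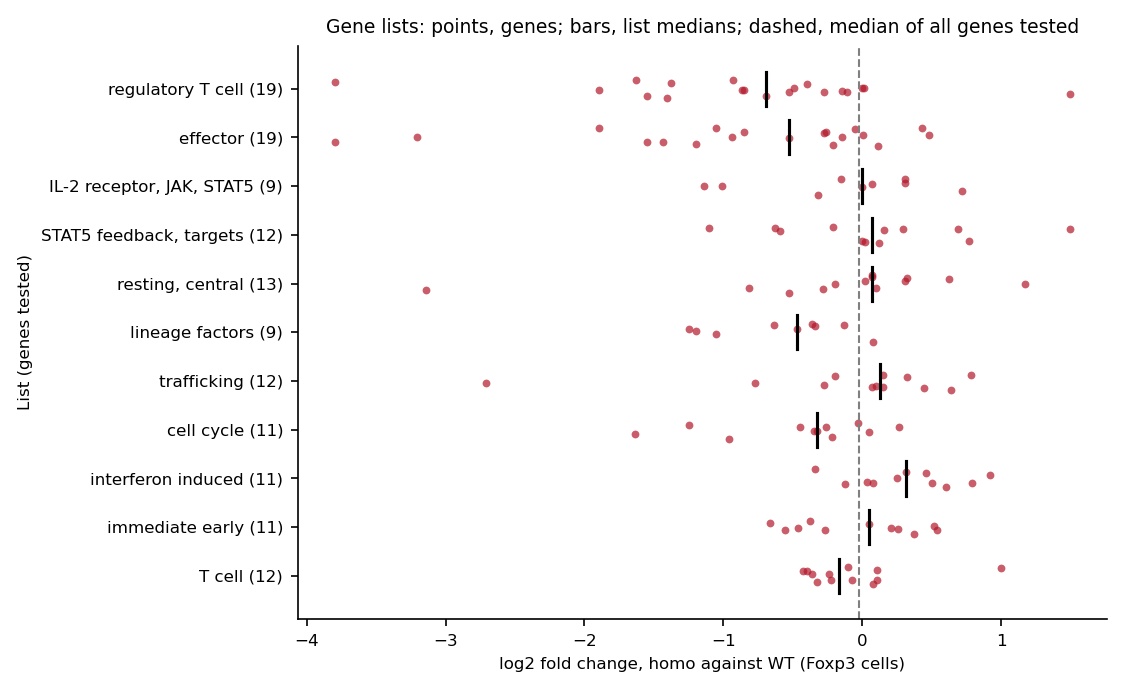
Log2 fold change of homo against WT in Foxp3 cells for the tested genes of 11 lists (points), with the list medians (bars) and the median of all genes tested, -0.0215 (dashed line). The regulatory T cell and effector lists have medians of -0.695 and -0.528, the interferon list 0.315 (-0.422 without homo 2), and Tnfrsf9 is the leftmost point of the first 2 lists.

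Genes of resting and central cells were divided, with 8 of 13 higher and a median of 0.0714. Without homo 2 the direction turned, with 11 of 13 lower and a median of -0.652, and it was -0.0507 without WT 1 and 0.158 without WT 2. Itm2a, a membrane protein gene, was the lowest at -3.14 (adjusted p = 0.208), with 2 UMIs in homo against 48 in WT, a ratio of 0.101 (counting interval 0.0119 to 0.386). Ly6c1, a surface protein gene of memory and some naive T cells, gave 1.17 (adjusted p = 0.259), with 85.0 and 86.7 CPM in WT and 124 and 206 in homo. Both genes passed in conventional cells, where Itm2a fell by 1.25 on the log2 scale (adjusted p = 0.00885) and Ly6c1 rose by 1.69 (adjusted p = 1.41e-06). Of the trafficking genes 12 of 20 were tested, 8 of them higher (median 0.126, but -0.0489 without WT 1 and -0.245 without homo 2). Ccr6, the receptor for CCL20, gave -2.71 (adjusted p = 0.405) from 2 UMIs in homo and 35 in WT, a ratio of 0.139 (counting interval 0.0162 to 0.540). Itgb7, an integrin chain for gut homing, gave 0.783 (adjusted p = 0.405).

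The other lists had no call in homo against WT, and several medians moved when one library was left out. Helper lineage transcription factors had 8 of 9 tested genes lower (median -0.469, and -0.873 without WT 2), led by Stat3 at -1.25 (adjusted p = 0.213) and Maf at -1.19 (adjusted p = 0.280). Cell-cycle genes had 9 of 11 lower (median -0.325), led by Pcna at -1.25 (adjusted p = 0.428) and Top2a at -1.63 (adjusted p = 0.572). Their median was -0.0286 without homo 2, with 8 of 15 lower, beside -0.163 over all genes, and -0.632 without homo 1. Interferon-induced genes had 9 of 11 higher (median 0.315), among them Bst2 at 0.601 (adjusted p = 0.657) and Xaf1 at 0.920 (adjusted p = 0.760). Their median was 0.638 without WT 1 (14 of 15 higher), 0.579 without homo 1 (13 of 15 higher) and 0.0893 without WT 2. It turned to -0.422 without homo 2, with 6 of 13 higher, to -0.373 with 2 or more Foxp3 UMIs and to -0.326 with a Cd4 and a Cd3 UMI, and kept its sign in 13 of 16 alternatives. Immediate-early and stress genes had 6 of 11 higher (median 0.0482), among them Jun at 0.539 and Ier2 at 0.521 (adjusted p = 0.685 for each), and a median from -0.251 without homo 2 to 0.136 without WT 2. T-cell genes had 8 of 12 lower (median -0.164, from -0.394 without homo 2 to -0.0494 without WT 1), with Lck at -0.400 (adjusted p = 0.721). Thy1, a T-cell surface glycoprotein of the same list, had 334 and 281 CPM in the WT libraries, 528, 514 and 534 in the het and 596 and 580 in the homo libraries. All edited libraries thus lay above both WT libraries for Thy1, as for 3.86% of the genes tested. It passed neither in homo (0.999, adjusted p = 0.0559) nor in het (0.825, adjusted p = 0.0574).

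Markers of other cell types were measured in the same sums. The myeloid markers together gave 392 and 723 CPM in the WT libraries, 314 to 329 in the het and 249 and 318 in the homo libraries, so that WT 2 was highest and both WT libraries lay above the rest. The Tnfrsf9 and Icos levels were also highest in WT 2 and lowest in homo among the genotype means. Of 11 myeloid markers Csf1r, Itgax and Siglech had no UMI, and Ctss (-0.526, adjusted p = 0.722) and Cst3 (-0.128, adjusted p = 0.965) were tested. The 14 B-cell markers gave 536 to 601 CPM in the WT libraries, 569 to 657 in the het and 522 to 605 in the homo libraries, with Ebf1 and Pax5 at 0. Their tested members were Ighm (0.456, adjusted p = 0.738) and Cd74 (-0.529, adjusted p = 0.762). Natural killer and cytotoxic markers, with Ncr1, Klrb1c and Gzma at 0, gave 26.2 and 44.8 CPM in the WT libraries, 92.2, 141 and 123 in the het and 24.9 and 56.1 in the homo libraries. All het libraries thus lay above the others, and the part of this in the het values was not tested. Gamma-delta T-cell markers lay between 0 and 29.0 CPM, with Cd163l1 and Sox13 at 0, and none of the 5 red-cell markers had a UMI. Of the stromal markers Pecam1 was tested (0.115, adjusted p = 0.970), and Col3a1, Mgp and Sparc were at 0. Between 6.02% and 36.3% of Foxp3 cells had a UMI of a B-cell or myeloid gene, and without these cells 4 genes were called in homo against WT, Tnfrsf9 and Dapl1 among them. The change was then -4.67 (adjusted p = 0.00549) for Tnfrsf9 and -1.88 (adjusted p = 0.0171) for Icos.

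A gene change is particular to Foxp3 cells only if it differs from that in conventional CD4 cells, where 29 of 6384 genes (0.454%) were called in homo against WT. The conventional gate may hold regulatory T cells without a Foxp3 UMI, as said above. The difference of the 2 changes passed an adjusted p under 0.05 for 7 of 6627 genes (0.106%). Among them were 3 histone genes, Hist1h2ae (-3.48, SE 0.593, adjusted p = 3.13e-05), Hist1h1e (-2.07, SE 0.445, adjusted p = 0.00711) and Hist1h1b (-2.05, SE 0.490, adjusted p = 0.0384). The antisense RNA Gm20628 (-4.87, SE 1.18, adjusted p = 0.0384), the lincRNA Gm26917 (0.975, SE 0.235, adjusted p = 0.0384) and Oxa1l, which encodes an insertase of the inner mitochondrial membrane (2.53, SE 0.624, adjusted p = 0.0466), also passed. Gm26917 and Oxa1l each stayed called in only 2 of 15 alternatives, and DESeq2 called 0 genes for this difference. Gm20628 could share reads with overlapping genes on the other strand. Counts of Hist1h2ae, Hist1h1b and Gm20628 sat in few cells, as with the 13 of 14 Hist1h1b UMIs of het 2 in 1 cell, and without homo 2 the sign turned for Hist1h2ae (6.92), Hist1h1b (2.52) and Gm20628 (4.27), and the difference for Hist1h1e was -0.0647 (adjusted p = 1.0).

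Coro2a, which encodes an actin-binding coronin, was the last of the 7. Foxp3 cells had 157 and 120 CPM in the WT libraries, 109, 120 and 82.2 in the het and 199 and 87.3 in the homo libraries, which overlapped between genotypes. Conventional CD4 cells had 4.75 and 11.5 CPM in the WT libraries, 37.4, 36.4 and 35.2 in the het and 56.9 and 61.1 in the homo libraries, with no overlap. The share of all genes in such an order was not computed for conventional cells. Coro2a rose in conventional cells (2.67, adjusted p = 0.000309) and gave -0.199 in Foxp3 cells (adjusted p = 0.939), a difference of -2.91 (SE 0.606, adjusted p = 0.00513). The difference was -2.0 without homo 2 and -2.58 without WT 1, and it passed in neither. DESeq2 gave -2.98 with an adjusted p of 0.789.

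**Figure D5:**
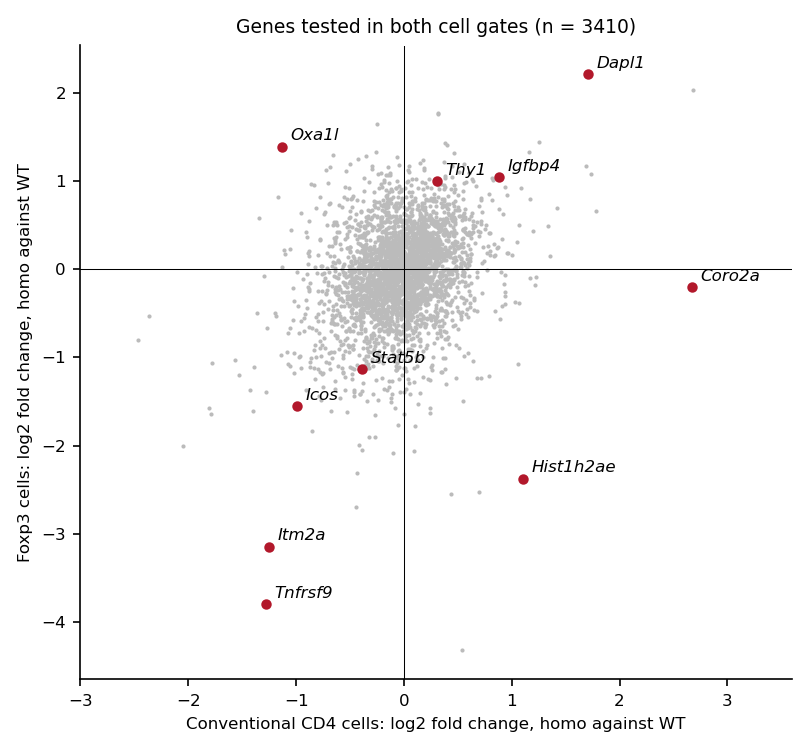
Log2 fold change of homo against WT in Foxp3 cells (vertical) and in conventional CD4 cells (horizontal) for the 3410 genes tested in both, with named genes in red. Dapl1 lies high on both axes at 2.21 and 1.71, Coro2a far right near 0 on the vertical axis, and Tnfrsf9 at the bottom left.

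Receptor sequences were used to ask whether Foxp3 cells held expanded clones. A T-cell receptor clonotype was the set of productive alpha and beta chains by V gene and CDR3 nucleotide sequence, CDR3 being the loop that contacts antigen. Both chains were read in 713 Foxp3 cells, which carried 711 clonotypes within their libraries. In the counts of expanded clonotypes, the other cell could be any barcode past the first filters with both chains, Foxp3 cell or not. Cells in an expanded clonotype, one held by at least 2 cells of the library, numbered 1 of 94 and 4 of 159 in the WT libraries, 2 of 147, 4 of 97 and 1 of 44 in the het and 0 of 68 and 1 of 104 in the homo libraries. The 0 of homo 1 allows a share of up to 5.28% (exact 95% interval), and both homo libraries lay below the others, while WT and het overlapped. WT 1, het 3 and homo 2 held 1 such cell each, so the number of cells read set their order. The means were 1.79% ± 1.03 (SD, n = 2), 2.59% ± 1.41 (SD, n = 3) and 0.481% ± 0.680 (SD, n = 2), with an exact two-sided permutation p of 0.276 for the order (adjusted 0.414). With 2487 cells drawn per library, the difference of homo minus WT was -0.785 points, and the exact permutation p was 0.438. Conventional CD4 cells had 53 of 2587 in expanded clonotypes, of which 17 were in WT 2 and 21 in het 2.

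Only 4 Foxp3 cells shared a clonotype with a conventional CD4 cell of their library, 1 in WT 1, 2 in het 2 and 1 in homo 2. Barcodes without a Cd4 UMI could not count as partners, and a partner could be a regulatory T cell without a Foxp3 UMI. The exact permutation test gave p = 0.971 (adjusted 0.971), where the smallest p these ties allow is 0.0571. A single pair of Foxp3 cells had one clonotype in WT 2 and another pair in het 1. Their CDR3 sequences are shown because they are the receptors that 2 Foxp3 cells shared in all their chains, in lower case throughout since no base is singled out. With 1 alpha and 1 beta chain taken per cell, het 2 held such a pair as well, and 7 of its 97 cells were in expanded clonotypes. The V and J genes were TRAV14N-3 with TRAJ40 and TRBV15 with TRBJ2-7 in WT 2, and TRAV4-4-DV10 with TRAJ47 and TRBV13-3 with TRBJ2-3 in het 1.
WT 2 alpha chain: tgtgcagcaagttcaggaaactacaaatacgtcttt
WT 2 beta chain: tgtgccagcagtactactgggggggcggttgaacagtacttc
Het 1 alpha chain: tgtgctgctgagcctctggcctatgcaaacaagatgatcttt
Het 1 beta chain: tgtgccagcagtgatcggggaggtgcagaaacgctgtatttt

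The spleen gave 1 library each of WT, Y665F and Y665H mice, the last carrying histidine in place of the same tyrosine of STAT5B, and none of its cells is in the results above. Whether each was pooled from several mice is uncertain, as said above. The zygosity is not in the labels, and with 1 library a genotype there is no test. The same gate found 201 Foxp3 cells of 6866 barcodes (2.93%) in WT, 186 of 8018 (2.32%) in Y665H and 312 of 5028 (6.21%) in Y665F. These shares were not thinned, and the barcodes held a median of 5455, 5121.5 and 6707.5 UMIs in WT, Y665H and Y665F. Among them 1461, 1925 and 720 had at least 2 UMIs of Cd79a and none of Cd3. The part of depth and of these barcodes in the shares was not tested. Spleen and LN levels were not set against each other, because the sources name different kits. Intervals below are exact 95% Poisson intervals and cover counting error only.

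In spleen Foxp3 cells Dapl1 had 37.9 CPM (27.2 to 51.4) in the WT library, 49.6 (37.3 to 64.8) in that of Y665H and 172 (154 to 192) in that of Y665F. Igfbp4 had 60.1 CPM (46.4 to 76.6) in the WT library, 114 (94.8 to 136) in that of Y665H and 170 (152 to 189) in that of Y665F. Both were thus highest in the Y665F library, as they were above WT in the edited LN libraries. Tnfrsf9 had 66.5 CPM (52.1 to 83.8) in the WT library, 140 (118 to 164) in that of Y665H and 56.1 (45.9 to 67.7) in that of Y665F, so the WT and Y665F intervals overlapped. Icos had 126 CPM (105 to 149) in the WT library, 145 (123 to 170) in that of Y665H and 222 (201 to 244) in that of Y665F, the opposite order of WT and Y665F to that of WT and homo in LN. Socs2 had 57.3 CPM (43.9 to 73.5) in the WT library, 25.7 (17.1 to 37.2) in that of Y665H and 123 (108 to 140) in that of Y665F, in order Y665H, WT, Y665F without overlap of the intervals. Cish followed the same order with 149, 92.8 and 289 CPM in WT, Y665H and Y665F.

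The 250 bases before the start of Dapl1, Igfbp4 and Tnfrsf9, which were called, were read from RefSeq promoters of GRCm38.p6, to show which hold the STAT site TTCNNNGAA, which reads the same on both strands. Of 27025 genes with such a window, 2197 (8.13%) held it, as did 198 of 2764 tested genes (7.16%). The STAT5 feedback and target genes held it in 5 of 15 (33.3%) and the regulatory T cell genes in 3 of 16 (18.8%), the latter being Foxp3, Tnfrsf9 and Tnfrsf18. Shares of this size also stood in the interferon-induced genes with 4 of 14 (28.6%), the resting and central genes with 2 of 10 (20%) and the effector genes with 3 of 20 (15%). Dapl1 (chr2:59484403-59484652) and Igfbp4 (chr11:99040994-99041243) did not hold it. Tnfrsf9 has 2 RefSeq starts, and the window of one (chr4:150927749-150927998) held a match that begins 136 bases before the start. A match is a description of letters and not a bound site. Hist1h2ae was not matched by symbol. The matches are in capitals below.
Dapl1: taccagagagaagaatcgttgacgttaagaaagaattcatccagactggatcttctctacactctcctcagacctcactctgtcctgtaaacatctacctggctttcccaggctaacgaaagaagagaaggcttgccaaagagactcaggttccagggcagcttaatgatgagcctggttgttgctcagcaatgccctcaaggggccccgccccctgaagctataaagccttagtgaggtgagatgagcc
Igfbp4: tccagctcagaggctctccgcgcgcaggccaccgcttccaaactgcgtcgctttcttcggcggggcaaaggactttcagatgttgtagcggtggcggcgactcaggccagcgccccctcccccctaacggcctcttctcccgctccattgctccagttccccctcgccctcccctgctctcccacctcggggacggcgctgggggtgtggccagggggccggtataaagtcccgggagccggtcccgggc
Tnfrsf9: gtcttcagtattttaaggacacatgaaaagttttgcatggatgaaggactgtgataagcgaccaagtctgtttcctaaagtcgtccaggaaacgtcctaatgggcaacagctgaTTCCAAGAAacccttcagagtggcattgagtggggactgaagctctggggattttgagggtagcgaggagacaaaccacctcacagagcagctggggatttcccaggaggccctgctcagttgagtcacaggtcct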

How the data were processed

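The deposited LN and spleen matrices hold raw UMI counts per gene and barcode, counted by the authors in Cell Ranger (5.0.0 in the LN file headers) on the GRCm38 mouse genome. The deposited receptor tables list T-cell receptor contigs, with UMI counts per contig that the authors obtained from the same software. The submitters' processing notes name Cell Ranger 5.0, Seurat 4.0 and mm10. The labels name a kit for transcript 3′ ends and the study's methods one for 5′ ends. Bone marrow was not used here.

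UMI counts of Foxp3 cells and of conventional CD4 cells were summed per library and fitted with edgeR 4.0.16 quasi-likelihood tests (R 4.3.3, limma 3.58.1, TMM scaling, filterByExpr), with all 3 genotypes in one model and p-values adjusted over all genes tested. A gene was called at an adjusted p under 0.05 and a fold change over 2. CPM are UMIs per 1000000 UMIs of the summed cells. The difference between cell gates was an interaction with library as a covariate, called at an adjusted p under 0.05. Shares were tested by exact two-sided permutation. DESeq2 1.42.0, other gates and filters, and left-out libraries were the alternatives. The edgeR fits of homo against WT and of the interaction were run on simulated counts with known changes, and the other fits were not. The simulation used the same spread for all genes and no clumping of UMIs in single cells. It thus does not show how the tests behave on genes whose UMIs sit in few cells. Python 3.11.15, scipy 1.17.1, scanpy 1.11.5 and matplotlib 3.10.9 were used. Named genes were, in homo against WT, the called genes without overlap between homo and WT libraries (up to 12 in each direction), the 5 largest in each direction for the other contrasts, the called members of each list or otherwise the 2 of smallest p, and 13 genes of the Foxp3 and IL-2 pathway. The rule left out receptor and immunoglobulin segments, mitochondrial, ribosomal and sex-linked genes and the genes of the gate. The remaining genes were chosen after their values were seen: Tigit, Ccr8 and the spleen genes outside these rules. The gate, gene lists and tests were chosen with earlier results of these data known.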

Additional observations from a re-analysis of the deposited data

Results flagged for a closer look

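The following genes were singled out because their change in homo against WT differed between Foxp3 cells and conventional CD4 cells, by an edgeR interaction test with adjusted p under 0.05. Each value is the log2 change in Foxp3 cells minus that in conventional cells. It was -3.48 for Hist1h2ae, -2.07 for Hist1h1e and -2.05 for Hist1h1b. It was -4.87 for Gm20628, which had 1 UMI in homo Foxp3 cells against 55 in WT, a ratio of 0.0442 (counting interval 0.0011 to 0.257). That interval takes UMIs as independent, and 25 of the 35 UMIs of WT 2 and 11 of the 20 of WT 1 were in 1 cell each. It was -2.91 for Coro2a, 0.975 for Gm26917 and 2.53 for Oxa1l. Oxa1l had 45.8 and 47.8 CPM in WT and 124 and 118 in homo Foxp3 cells, and 54.6 and 71.6 against 19.0 and 30.6 CPM in conventional cells. Gm26917 had 366 and 374 CPM in WT and 572 and 573 in homo Foxp3 cells, and 534 and 590 against 399 and 465 CPM in conventional cells. Over 15 alternatives each, Oxa1l and Gm26917 passed in 2, and Coro2a in 10. Hist1h1e was -0.0647 without homo 2 (adjusted p = 1.0).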

How the results depend on the processing

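The number of genes called depended on the gate, filter and library set. In homo against WT (2 genes), 0 were called with 2 or more Foxp3 UMIs, with a Cd4 and a Cd3 UMI, or by DESeq2, 4 without cells holding B-cell or myeloid UMIs, 5 without doublets, 7 with every gene that had a UMI, 9 without the 2 shallowest libraries, and 1 to 14 leaving out one library. In het against WT (3), the counts were 1 with 2 or more Foxp3 UMIs, 0 with a Cd4 and a Cd3 UMI or by DESeq2, 5 at 500 genes, 7 with every gene, 9 without the shallowest libraries and 0 to 12 leaving out one. Homo against het (0) gave 1, Lgals1, with a Cd4 and a Cd3 UMI. The interaction (7) gave 0 with 2 or more Foxp3 UMIs or by DESeq2, 2 without B-cell or myeloid UMIs, 3 at 500 genes, 4 with every gene, 14 without the shallowest libraries and 0 to 7 leaving out one. Leaving out one library, it ran from -5.52 to 6.92 for Hist1h2ae, from -3.60 to 2.52 for Hist1h1b and from -9.75 to 4.27 for Gm20628, each turning without homo replicate 2. The causes were not tested, beyond the smaller number of cells and genes that each stricter gate leaves.

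Dapl1 in homo stayed called in 12 of 15 alternatives and Tnfrsf9 in 12 of 14. In het, Dapl1 stayed called in 10 of 15, Igfbp4 in 11 of 16 and Hist1h2ae in 8 of 15. None of these 5 changed sign. The list medians were recomputed under the alternatives after seeing the data, and those of the regulatory T cell and effector lists were negative in all 16 alternatives, from -2.60 to -0.436 and from -2.60 to -0.384, as were those of the cell-cycle genes, from -2.11 to -0.0286, and the helper lineage factors, from -0.873 to -0.395. The cell-cycle median lay above that of all genes without homo 2 (-0.0286 beside -0.163) and at 500 genes (-0.0648 beside -0.0753). The share difference of homo minus WT (0.277 points) was 0.178 at 500 UMIs and turned to -0.250 among T-cell barcodes (a Cd3 UMI and none of Cd8a, Cd8b1 or Cd79a) and to -0.343 with 2 or more Foxp3 UMIs and no thinning, the latter chosen after seeing the data. No thinning alone gave 0.000898. Leaving out one library gave 0.163 to 0.391, and without het replicate 3, which leaves the difference at 0.277, the exact permutation test of the genotype order gave p = 0.0222, the smallest that set of libraries allows. The difference in expanded clonotypes ran from -2.03 to -0.583 points leaving out one library, and that in shared clonotypes from -0.583 to 0.481, turning to 0.481 without WT replicate 1 and to 0.430 without homo replicate 1.

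With the replicate number as a block, 2 genes were called in homo against WT, 2 in het against WT and 0 in homo against het. Deviations of same-numbered libraries correlated between -0.0351 and 0.0275 and those of other pairs between -0.0309 and 0.0351. Deviations in a genotype of 2 libraries mirror each other, so each correlation recurs with the opposite sign. This check thus could not tell whether the numbers pair the libraries. Depth limits the comparison most in het 3 and homo 1.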

Other observations

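Spleen Foxp3 cells of the Y665F library had higher levels of Gzmb and Klrg1, picked after their values were seen and without a test since each genotype had 1 library. Gzmb, the cytotoxic protease granzyme B, had 5.54 CPM (exact 95% Poisson interval 2.03 to 12.1) in the WT library, 14.7 (8.40 to 23.9) in that of Y665H and 169 (151 to 189) in that of Y665F. Klrg1, an inhibitory receptor of terminal effector cells, had 30.5 CPM (21.0 to 42.8) in the WT library, 25.7 (17.1 to 37.2) in that of Y665H and 109 (95.1 to 125) in that of Y665F. The Y665F library lay above the other two in both, and the WT and Y665H intervals overlapped. Il2ra had 434 CPM (396 to 475) in the WT library, 263 (233 to 295) in that of Y665H and 486 (455 to 518) in that of Y665F, and Il2rb 348 (314 to 385), 322 (289 to 357) and 520 (488 to 553). Bcl2 had 476, 290 and 568 CPM and Pim1 397, 342 and 571. By value Y665H was lowest and Y665F highest for each, but the WT and Y665H intervals of Il2rb overlapped. No interval is given for Bcl2 and Pim1, so their order is not set against counting error. Hist1h1b had 2.77, 368 and 140 CPM.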
